A study of Danio rerio with 6 samples.

Results

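Hearing and balance in fish start in the inner ear, where hair cells bend under the movement of otoliths, the ear stones of calcium carbonate that grow on a protein matrix. The matrix proteins are secreted into the ear fluid, and gelatinous membranes built from tectorins and related proteins hold each otolith over its patch of hair cells. The hair bundle opens ion channels when tip links are pulled, and the cell then releases transmitter at a ribbon synapse in which otoferlin acts as the calcium sensor. The same kind of hair cell also sits in the neuromasts of the lateral line in the skin of the head. Here 10 genes of this system were followed in heads of *fbln1* mutant larvae, namely the otolith and membrane genes *otomp*, *stm*, *oc90* and *tecta*, the hair bundle genes *cdh23* and *myo7aa*, the synapse genes *otofa* and *otofb*, the calcium buffer gene *pvalb9* and the transcription factor gene *pou4f3*. They were found by gene name and correspond to 11 of the 32520 rows listed, since *cdh23* stands under 2 identifiers.

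RNA-Seq was carried out on 3 pools of homozygous *fbln1* mutant heads (genotype ulg075, a small deletion in the coding region, AB background) and 3 pools of WT heads (ABwt), all at 10 dpf, with no treatment named in the labels and with 21 heads per pool. Heterozygous parents were crossed, heads were cut off and stored singly, and bodies were genotyped before pooling. The design text describes the WT larvae as siblings of the mutants, while the series title names AB WT. The mutant is a single allele in 1 line, and the labels name the transgenic AB line ulg071 Tg for the fish as a whole.

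Between 15174207 and 18721515 reads were counted on genes per library, and the deposited values are these counts divided by 1 size factor per library (normalized counts). The floor of 3 reads stands at 2.60 to 3.20 normalized counts and covers counting error only. Of the 32520 rows, 20691 reached 10 normalized counts in 3 or more libraries and were tested with limma on log2(normalized count + 1), a scale that understates changes of genes with low counts. A gene was called when its Benjamini-Hochberg adjusted p was under 0.05 and its log2 fold change, mutant minus WT, was beyond 0.5 in either direction. The targeted gene *fbln1* stood at 77.4, 136 and 70.4 normalized counts in WT pools 1, 2 and 3 and 93.2, 53.1 and 39.9 in the libraries labelled mutant 1, 2 and 3, so that its level did not part the groups (log2 fold change -0.63, adjusted p = 0.162 by limma). Over the 6 fits that each dropped a library, the change of *fbln1* ran on the log2 scale from -0.96 to -0.34 and the adjusted p from 0.0419 to 0.47, with a call as lower without mutant 1 and the smallest change without WT pool 2. The authors describe pooled heads, but elsewhere call the extracted RNA that of whole larvae. The libraries also held mRNA of other tissues. All 6 of 6 intestine markers listed, *fabp2* and *vil1* among them, were called higher in the mutant, with a summed level of 3895 to 5817 normalized counts in WT pools and 32700 to 59552 in mutant pools. For 6 exocrine pancreas markers, all called higher but *prss1*, *ctrb1*, *cel.1* and *amy2a* not in every fit with a library left out (adjusted p up to 0.143), the summed level was 76013 to 134070 in WT and 130432 to 213272 in the mutant, and for 6 skin keratinocyte markers, of which 5 were called higher, it was 29474 to 42285 and 79524 to 104392. Over all tested genes, 15.4% were called higher. No defining marker of these lists was at 0 in all libraries. Their part in the results on ear genes was not tested, and in such bulk samples fewer cells of a type and less RNA per cell cannot be told apart.

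Of the 10 tested ear entries, *otomp*, *otofb* and *pvalb9* were called higher in the mutant and *tecta* and *cdh23* were called lower, while *stm*, *oc90*, *myo7aa*, *otofa* and *pou4f3* were not called. The 3 of 10 called higher stand beside 15.4% of all 20691 tested genes, and the 2 of 10 called lower stand beside 2.68%. Without the limit on the fold change, 3 entries were higher and 4 lower with an adjusted p under 0.05 (limma), beside 18.9% and 15.1% of all tested genes, which makes 7 of 10 beside 33.9%. The ear genes thus moved in both directions, with log2 fold changes from -0.64 to 0.99 and a median of -0.16, where the median of all tested genes was -0.03. The mutant pools lay all above the WT pools for 2 entries and all below them for 3, at a background of 24.5% and 24.3% of tested genes, so that the number of entries with parted groups is not a result about the ear genes. The calls of *otomp*, *otofb* and *tecta* were kept with each of the 6 libraries left out in turn, whereas those of *pvalb9* and *cdh23* were not, as given with each gene.

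**Figure D1:**
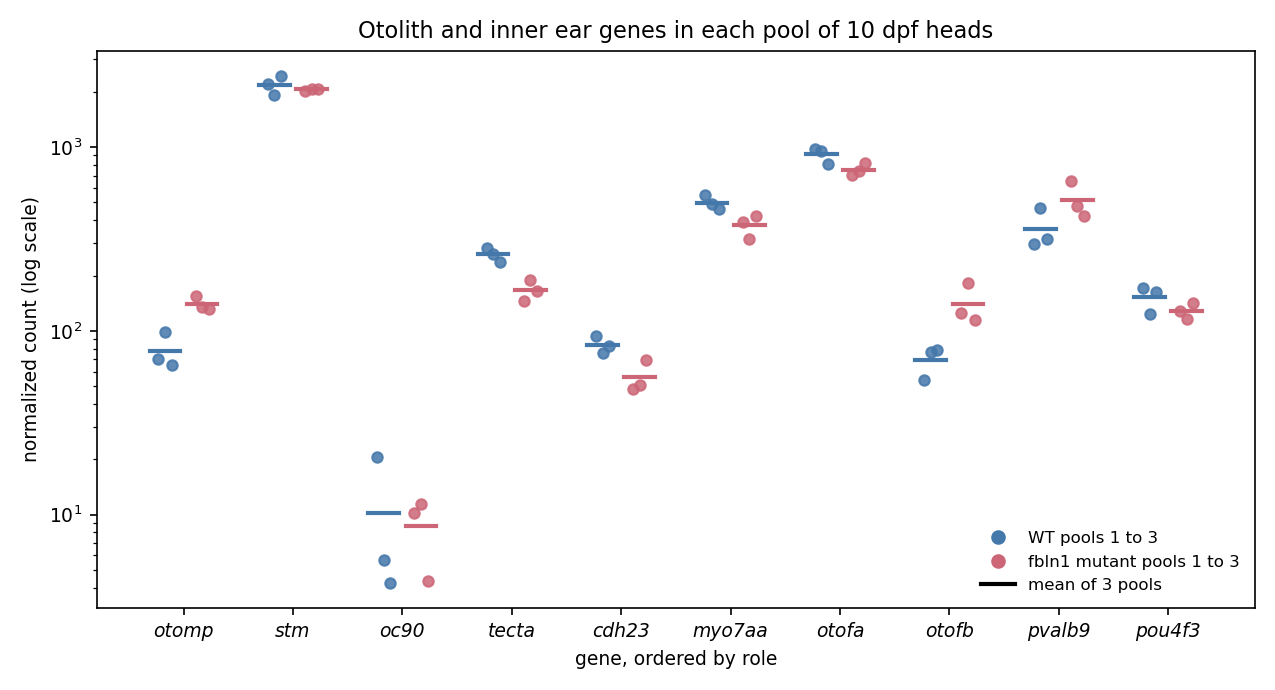
Normalized counts (y axis, log scale) of the 10 tested ear genes (x axis) in the 3 WT pools (blue) and the 3 mutant pools (red), with each point 1 pool and each bar the mean of 3 pools. All 3 mutant pools lie above the WT pools for *otomp* and *otofb* and below them for *tecta*, *cdh23* and *myo7aa*, and the groups overlap for the other 5.

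The otolith matrix gene *otomp* (ENSDARG00000040306), which codes for a secreted matrix protein needed for otolith growth in zebrafish, was higher in the mutant. It stood at 70.2, 99.0 and 65.1 normalized counts in WT pools 1, 2 and 3 and 155, 135 and 132 in mutant pools 1, 2 and 3. The groups did not overlap, and WT pool 2, the highest of the WT pools, lay nearest to the mutants. The means were 78.1 ± 18.3 in WT and 141 ± 12.4 in the mutant (SD, n = 3 pools each), a 1.82-fold difference (log2 fold change 0.86, standard error, SE, 0.19, adjusted p = 0.00618 by limma). Over the 6 fits that each left out a library, the change lay between 0.74 and 1.04 on the log2 scale and the largest adjusted p was 0.0286.

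The gene *stm* (ENSDARG00000035694) codes for Starmaker, an acidic matrix protein that sets the shape and crystal form of zebrafish otoliths. Its normalized counts were 2199, 1925 and 2435 in WT pools and 2015, 2080 and 2080 in mutant pools. The mutant pools lay within the range of the WT pools. The log2 fold change was -0.08 with a 95% interval from -0.27 to 0.11 (adjusted p = 0.508 by limma), so that a change of *stm* as large as that of *otomp* lies outside the interval. Within each library, the ratio of *otomp* to *stm* was 0.0319, 0.0514 and 0.0267 in WT pools and 0.0768, 0.0651 and 0.0633 in mutant pools, without overlap.

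For *oc90* (ENSDARG00000001721), the gene of otoconin 90, which seeds the ear stones, the counts were too low for a statement. The pools held 20, 6 and 4 reads in WT and 10, 11 and 5 in the mutant, and WT pool 1 was the highest of all 6. The 95% interval of the log2 fold change ran from -1.39 to 1.38 (adjusted p = 0.994 by limma), and a change of *oc90* was not detectable at this depth.

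The gene *tecta* (ENSDARG00000059558) codes for alpha-tectorin, a structural protein of the gelatinous membrane over the hair cells. It was lower in the mutant, with 284, 262 and 236 normalized counts in WT pools 1, 2 and 3 and 146, 190 and 165 in mutant pools 1, 2 and 3. Every mutant pool was below every WT pool. The means were 261 ± 24.1 in WT and 167 ± 22.1 in the mutant (SD, n = 3 each), and the level in WT was 1.56-fold that in the mutant (log2 fold change -0.64, SE 0.13, adjusted p = 0.00506 by limma). With a library left out, the log2 fold change lay between -0.74 and -0.55 and the adjusted p was at most 0.0296.

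Other genes of the otolith and its membranes were taken from a list of 11 genes, of which 7 passed the filter. Only 1 of these 7 was called, as higher in the mutant, and none was called lower, beside 15.4% and 2.68% of all tested genes. The median log2 fold change of the 7 was 0.31 and all 7 were above 0, as were 9864 of all 20691 tested genes. The 6 not called had adjusted p from 0.328 to 0.888 by limma. Of these, *otol1a* and *otop1* went below 0 in some fits with a library left out (to -0.04 and -0.16). The called gene was *sparc*, which codes for a calcium-binding matrix glycoprotein found in otoliths and in bone. It stood at 1230, 1325 and 1365 normalized counts in WT pools and 3990, 4252 and 3206 in mutant pools, with no overlap (log2 fold change 1.54, SE 0.10, adjusted p = 3.28e-06 by limma). For *tectb*, the partner of *tecta* in the membrane, the log2 fold change of 0.24 was within its error (95% interval -0.45 to 0.92, adjusted p = 0.584 by limma). The intervals of *otol1a*, the gene of the otolith collagen-like protein otolin, and of *otop1*, a proton channel gene needed for otolith formation, were wider (-0.75 to 1.24 and -0.87 to 1.06). The cartilage markers *col2a1a*, *matn1*, *epyc* and *cnmd* were called higher as well, 4 of 6 listed. The markers *acana* and *sox9a* were not called (log2 fold changes 0.44 and 0.09, adjusted p = 0.0654 and 0.566 by limma). The summed level of the 6 was 1213 to 1542 normalized counts in WT and 6090 to 7625 in the mutant, where *col2a1a* had the highest mean, 4623. The part of cartilage in the value of *sparc* was not tested.

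**Figure D2:**
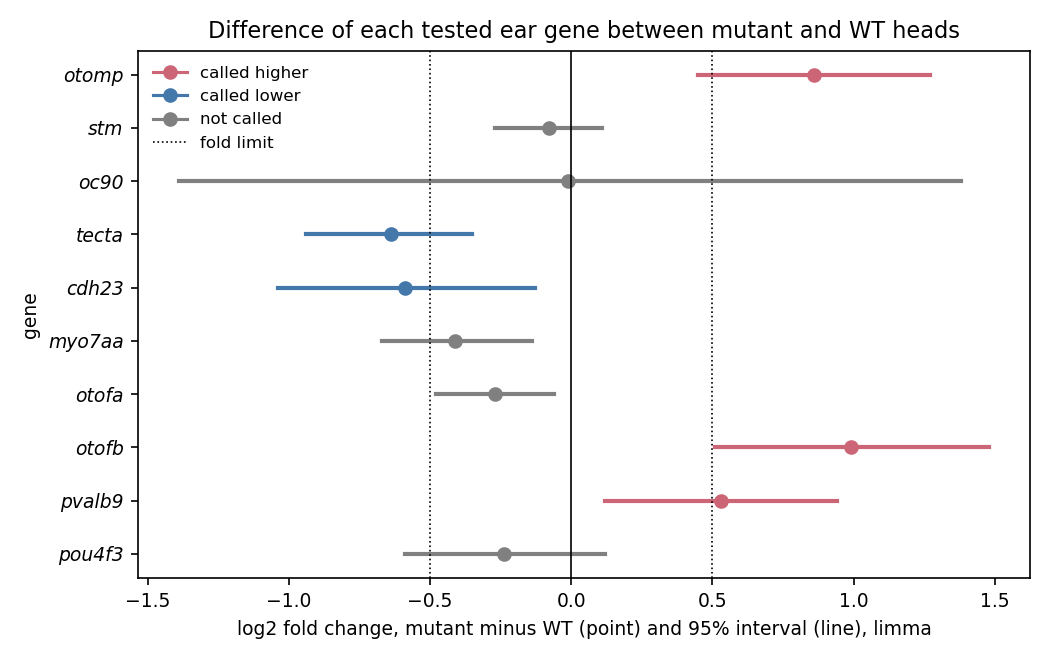
Log2 fold change of each tested ear gene, mutant minus WT (points), with its 95% interval (lines) from limma on 3 pools per group, and dotted lines at the fold limit of 0.5 in each direction. The intervals of *otomp*, *otofb* and *pvalb9* lie above 0, those of *tecta*, *cdh23*, *myo7aa* and *otofa* lie below 0, and that of *oc90* spans -1.39 to 1.38.

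Both hair bundle genes had lower values in the mutant. The gene *cdh23* (ENSDARG00000007561) codes for cadherin 23, which forms the upper part of the tip link. It stood at 93.9, 75.4 and 83.2 normalized counts in WT pools and 48.2, 51.0 and 69.3 in mutant pools, so that the groups were parted, though mutant pool 3 came close to WT pool 2. The log2 fold change was -0.59 (SE 0.21, adjusted p = 0.0473 by limma), from means of 84.2 ± 9.32 in WT and 56.2 ± 11.5 in the mutant (SD, n = 3 each). This call rested near the threshold and held in 1 of the 6 fits with a library left out, being lost without WT pool 1, 2 or 3 and without mutant pool 1 or 2 (log2 fold changes -0.49 to -0.75, adjusted p up to 0.152). It was also lost with edgeR and DESeq2 on the recovered reads (adjusted p = 0.0728 and 0.0955). The second *cdh23* entry (ENSDARG00000094454) had 4 to 14 reads per pool, was below the filter and was not tested. Reads of *cdh23* may be split between these entries.

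The gene *myo7aa* (ENSDARG00000099871) codes for myosin VIIa, the motor that keeps the hair bundle in order and is lost in the zebrafish *mariner* mutant. Its normalized counts were 546, 487 and 460 in WT pools and 391, 317 and 424 in mutant pools. Every mutant pool was below every WT pool. The log2 fold change of -0.41 (SE 0.12, adjusted p = 0.0252 by limma) did not reach the limit of 0.5, so *myo7aa* was not called. Its adjusted p was as high as 0.108 with a library left out.

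The list of further hair bundle and mechanotransduction genes held 26 genes, of which 22 were tested. Of these, 1 was called higher and 1 lower, beside 15.4% and 2.68% of all tested genes. Without the limit on the fold change, 1 was higher and 7 were lower at an adjusted p under 0.05 (limma), beside 18.9% and 15.1% of all tested genes, and the median log2 fold change was -0.19. The gene called higher was *myo15aa*, whose myosin carries actin regulators to the tips of stereocilia, with 69.2, 35.8 and 46.9 normalized counts in WT pools and 116, 122 and 87.5 in mutant pools. Its groups did not overlap, and its log2 fold change was 1.12 (SE 0.25, adjusted p = 0.00739 by limma). The gene called lower was *espn*, which codes for an actin-bundling protein of stereocilia. It changed by -0.51 on the log2 scale (adjusted p = 0.0136 by limma) and lost this call without WT pool 1, WT pool 2 or mutant pool 2 (log2 fold change as small as -0.40, adjusted p up to 0.0663).

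Many hair bundle genes are also transcribed in the retina, and *pou4f3* is also a gene of retinal ganglion cells in zebrafish, so retinal markers are given beside them. Of 6 retinal ganglion cell markers tested, 2 were called lower and none higher, beside 2.68% and 15.4% of all tested genes. Those 2 were *rbpms2b* with a log2 fold change of -0.53 and *isl2b* with -0.52 (adjusted p = 0.00522 and 0.00768 by limma). Both lost the call without WT pool 1 or mutant pool 2 (log2 fold changes as small as -0.41 and -0.39). The summed level of the 6 was 8478 to 9949 normalized counts in WT pools and 6220 to 7081 in mutant pools, without overlap. The genes *rbpms2a* and *rbpms2b* had the highest means of the 6, 3442 and 3078 in WT. The markers *rbpms2a*, *pou4f2*, *sncga* and *atoh7* were not called, with log2 fold changes of -0.45, -0.22, -0.01 and 0.13 (adjusted p = 0.00233, 0.0399, 0.957 and 0.764 by limma). For 9 photoreceptor marker entries, the summed level overlapped between groups, with 103533 to 121543 in WT and 96324 to 122224 in the mutant. Of these 9, *opn1lw1* was called higher and none lower, beside 15.4% and 2.68% of all tested genes. The genes *gnat2* with 0.33 and *crx* with -0.44 had an adjusted p under 0.05 without reaching the limit (adjusted p = 0.026 and 0.00947 by limma). The part of the retina in the values of the hair bundle genes was not tested.

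Of the otoferlin paralogs, *otofb* was called and *otofa* was not. The gene *otofb* (ENSDARG00000020581) was higher in the mutant, with 53.7, 76.3 and 79.0 normalized counts in WT pools 1, 2 and 3 and 125, 181 and 115 in mutant pools 1, 2 and 3. The groups did not overlap, and mutant pool 2 stood highest. The means were 69.7 ± 13.9 in WT and 141 ± 35.6 in the mutant (SD, n = 3 each), a 1.99-fold difference (log2 fold change 0.99, SE 0.22, adjusted p = 0.00667 by limma). With each library left out, the log2 fold change of *otofb* was between 0.80 and 1.12 and its largest adjusted p was 0.0301.

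The gene *otofa* (ENSDARG00000030832) stood at 981, 946 and 812 normalized counts in WT pools and 703, 742 and 819 in mutant pools. Mutant pool 3 was just above WT pool 3, so that the groups overlapped. The log2 fold change of -0.27 (95% interval -0.48 to -0.06, adjusted p = 0.0469 by limma) was not called, since it did not reach the limit of 0.5, and its adjusted p rose to as much as 0.174 with a library left out.

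A ratio of 2 genes within a library does not depend on how the library is scaled. Such ratios were compared for 7 gene pairs chosen after the values had been seen, and the exact permutation test of 3 against 3 pools cannot give a two-sided p below 0.1. The ratio of *otofb* to *otofa* was 0.0547, 0.0807 and 0.0972 in WT pools and 0.178, 0.244 and 0.141 in mutant pools. It was 2.42-fold higher in the mutant without overlap (exact permutation p = 0.1, adjusted over the 7 pairs 0.175). The ratio of *tectb* to *tecta* was parted as well, with 0.0691, 0.0791 and 0.127 in WT pools and 0.155, 0.137 and 0.209 in mutant pools, which is 1.86-fold higher (exact permutation p = 0.1, adjusted 0.175). The ratios of *otomp* to *stm* and of *tecta* to *stm* were the other 2 of the 4 parted pairs and had the same p. Each of the 4 parted pairs holds *otofb*, *otomp* or *tecta*, whose own groups were parted, so these ratios are no separate support. The share of parted pairs over all gene pairs was not computed. For the remaining pairs the groups overlapped. The ratio of *myo7ab* to *myo7aa* was 1.10, 1.27 and 1.13 in WT pools and 0.990, 1.22 and 1.08 in mutant pools (exact permutation p = 0.4). For *pcdh15b* to *pcdh15a*, the protocadherin 15 paralogs, it was 1.95, 1.86 and 1.84 in WT and 1.94, 1.80 and 1.97 in the mutant (exact permutation p = 0.9).

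**Figure D3:**
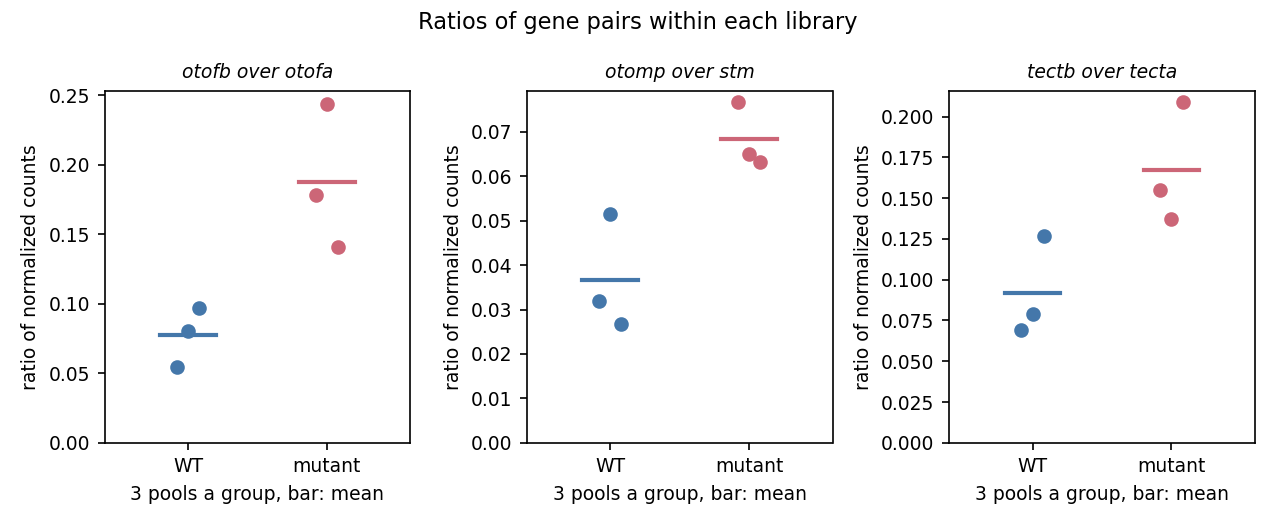
Ratio of the normalized counts of 2 genes within each library (y axes, starting at 0) for *otofb* over *otofa*, *otomp* over *stm* and *tectb* over *tecta*, with each point 1 pool and each bar the mean of 3 WT (blue) or mutant (red) pools. In each panel all 3 mutant pools lie above all 3 WT pools, with the highest WT ratio at 0.0972, 0.0514 and 0.127. The 3 pairs shown are among the 4 of 7 compared pairs whose groups were parted.

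The gene *pvalb9* (ENSDARG00000071601) codes for a parvalbumin, a calcium buffer that marks hair cells in zebrafish. It stood at 296, 466 and 316 normalized counts in WT pools and 653, 480 and 419 in mutant pools. The groups overlapped, because WT pool 2 was above mutant pool 3, and mutant pool 1 stood apart as the highest. The log2 fold change of 0.53 was called by a narrow margin (SE 0.19, adjusted p = 0.0498 by limma), from means of 359 ± 92.6 in WT and 517 ± 121 in the mutant (SD, n = 3 each). The call was lost without WT pool 1, WT pool 3, mutant pool 1 or mutant pool 2, where the log2 fold change was 0.41, 0.45, 0.35 and 0.57 and the adjusted p 0.182, 0.157, 0.176 and 0.0848.

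A list of further synapse and calcium genes of hair cells, which shares *tmc2a* with the hair bundle list, gave 11 tested entries, 4 of them of *cacna1db*. The median log2 fold change of the 11 entries was 0.00. Of these, 2 were called higher and 2 lower, beside 15.4% and 2.68% of all tested genes. The 2 called higher code for calcium-binding proteins. The related parvalbumin gene *pvalb8* stood at 807, 837 and 687 normalized counts in WT pools and 1126, 1621 and 1004 in mutant pools, without overlap (log2 fold change 0.66, adjusted p = 0.00866 by limma). It was not called without mutant pool 2, where its log2 fold change of 0.46 fell short of the limit. The gene *s100t*, of the S100 family, changed by 0.61 (adjusted p = 0.0255 by limma) and lost its call without WT pool 1 or mutant pool 2 (log2 fold change as small as 0.38, adjusted p up to 0.102). Those called lower were 2 of the 4 entries of *cacna1db*, which codes for a pore subunit of L-type calcium channels, with log2 fold changes of -0.53 and -0.54 (adjusted p = 0.0245 and 0.022 by limma). Reads may be split between these entries, and each call was lost in 4 of the 6 fits with a library left out. The first lost it without any 1 of the WT pools or without mutant pool 2, and the second without WT pool 1 or 3 or mutant pool 1 or 2 (adjusted p up to 0.0867 and 0.0931). The *cacna1db* entries not called had log2 fold changes of 0.15 and -0.49 (adjusted p = 0.598 and 0.0857 by limma). The gene *cacna1da* was not called. Every mutant pool was below every WT pool (means 1523 in WT and 1118 in the mutant), as held for 24.3% of all tested genes. The log2 fold change of *cacna1da* was -0.45 (SE 0.09, adjusted p = 0.0042 by limma). With a library left out, this change ran from -0.54 to -0.39 and the adjusted p was at most 0.0255. The vesicular glutamate transporter gene *slc17a8* of the hair cell synapse had 25.1 to 38.2 normalized counts over the 6 pools and a log2 fold change of -0.23 within its error (95% interval -0.81 to 0.34). The part of tissues other than hair cells in the values of this list was not tested.

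The transcription factor gene *pou4f3* (ENSDARG00000006206), which hair cells need to differentiate and survive, stood at 171, 123 and 162 normalized counts in WT pools and 128, 116 and 141 in mutant pools. The groups overlapped, with WT pool 2 below mutant pools 1 and 3. The log2 fold change was -0.24 with a 95% interval from -0.59 to 0.12 (adjusted p = 0.283 by limma). This interval does not hold a rise of the size seen for *otofb* or *otomp*.

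Of 11 further transcription factor genes listed for hair cells, all tested, 1 was called lower and none higher. The shares over all tested genes were 2.68% and 15.4%. The median log2 fold change of the 11 was -0.02, with 5 above 0 and 6 below 0. That of all tested genes was -0.03. The called gene was *lhx3*, which is active in hair cells and in the pituitary, with a log2 fold change of -0.55 (adjusted p = 0.0233 by limma). The call was lost without WT pool 1, WT pool 3, mutant pool 1 or mutant pool 2 (adjusted p up to 0.104). Without the limit on the fold change, none was higher and 4 were lower at an adjusted p under 0.05 (limma), beside 18.9% and 15.1% of all tested genes. Besides *lhx3* these were *pou4f1*, *barhl2* and *rfx3*, with log2 fold changes of -0.33, -0.29 and -0.36 (adjusted p = 0.0129, 0.0272 and 0.0306 by limma). The largest of their adjusted p-values with a library left out were 0.0613, 0.103 and 0.0891, and the smallest change of *rfx3* was then -0.23. The WT means of *pou4f1*, *barhl2* and *rfx3* were 745, 1048 and 667 normalized counts, where that of *pou4f3* was 152. The part of tissues other than hair cells in these values was not tested. The gene *atoh1a*, which starts hair cell formation, had 19.8 to 33.1 normalized counts in WT and 30.7 to 53.1 in the mutant (log2 fold change 0.61, adjusted p = 0.156 by limma).

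The median log2 fold change of 14 tested transcription factor genes that pattern the otic placode and vesicle earlier in development was 0.16. Of these 14, 3 were called higher and none lower, beside 15.4% and 2.68% of all tested genes. The called genes were *dlx4b* and *dlx3b*, which give the placode its competence, and *tbx1*. The gene *dlx3b* stood at 127, 145 and 143 normalized counts in WT pools and 293, 293 and 236 in mutant pools, with no overlap (log2 fold change 0.97, adjusted p = 0.000397 by limma). The changes of *dlx4b* and *tbx1* were 1.15 and 0.66 (adjusted p = 0.0102 and 0.0012 by limma). These genes are also active in the branchial arches, fins or teeth, so the tissue behind a value is not given by the gene. All 3 were called in each of the 6 fits with a library left out.

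The list of genes for the matrix that shapes the semicircular canals, 9 genes of which 7 were tested, had 4 called higher, beside 15.4% of all tested genes, and none lower and a median log2 fold change of 0.74. The largest change was that of *hapln1a*, which codes for a link protein between hyaluronan and proteoglycans. It stood at 105, 102 and 125 normalized counts in WT pools and 672, 569 and 467 in mutant pools, with no overlap (log2 fold change 2.34, SE 0.15, adjusted p = 2.29e-06 by limma). The gene *ugdh*, for the enzyme that makes the sugar precursor of hyaluronan, changed by 1.61, *vcanb*, for a versican, by 1.11, and *adgrg6*, for an adhesion receptor needed for canal fusion in zebrafish, by 0.60 (adjusted p = 0.000188, 0.0011 and 0.00986 by limma). Cartilage uses *hapln1a* and *ugdh* as well, and 4 of its 6 listed markers were called higher in the same comparison, as given above. The marker *acana*, which was not called, is on both lists. The part of cartilage in these values was not tested. Over all 6 ear lists together, 11 of 71 tested entries were called higher and 4 of 71 lower, where the shares over all tested genes were 15.4% and 2.68%, which is 15 of 71 beside 18.1%. The 4 called lower were *espn*, *lhx3* and 2 entries of *cacna1db*, and none kept its call in every fit with a library left out. Of the 11 called higher, *pvalb8* and *s100t* did not keep theirs either.

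**Figure D4:**
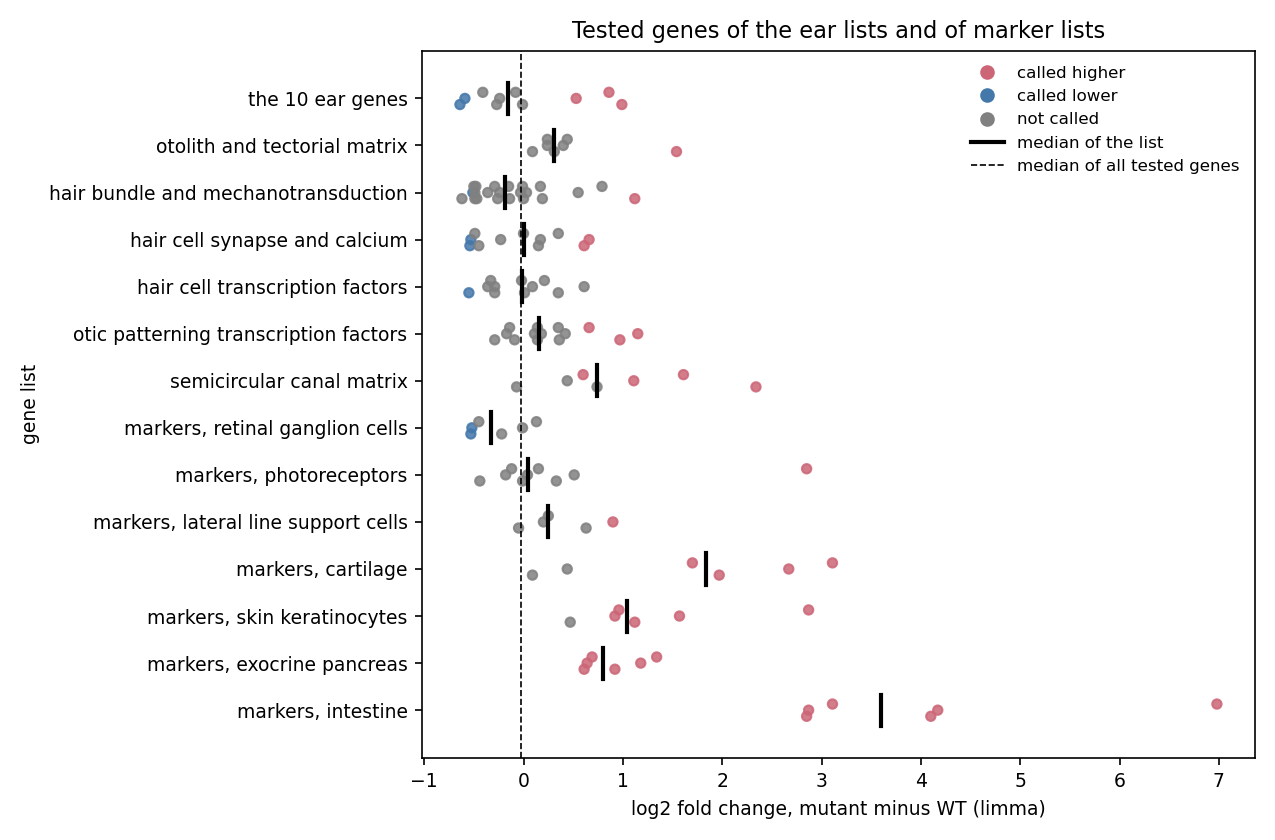
Log2 fold change, mutant minus WT (x axis, limma), of each tested entry in the ear lists and in the marker lists of other tissues (rows), coloured by call, with the median of each list (bar) and of all tested genes (dashed line). The 10 ear genes spread from -0.64 to 0.99 around a median of -0.16, while the medians are 0.74 for semicircular canal matrix genes, 1.84 for cartilage markers and 3.60 for intestine markers.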

How the data were processed

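Libraries were made by the authors with a stranded mRNA kit from pooled heads, sequenced single-end and processed on GRCz11 with an Ensembl annotation in the Nf-core rnaseq pipeline. Per the labels, DESeq2 was used. The deposited signal values are gene counts divided by 1 size factor per library. After division by the smallest step between the values of a library, 100% of the values above 0 were whole within 0.01 reads (scaled with the value above 1000 reads), and these reads may be rounded estimates, since the counter is not given in the sources used here. The authors' table of their own comparison (fold changes, p-values, means) was not used. Replicates of a group differed by more than sampling noise (chi-square per degree of freedom 6.07 to 16.0).

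Tests used limma 3.58.1 in R 4.3.3 with a variance trend and genotype as the only term, over all 20691 tested genes. Scripts were tested on simulated data. Alternatives were other pseudocounts, filters and scalings, no trend, a replicate block, edgeR 4.0.16 and DESeq2 1.42.0 on the recovered reads, no fold limit, and each library left out. The members and lists were chosen with earlier results of these data known. Named were all 10 ear genes and, per list, the called genes (at most 4, by size of change). Further genes were picked with their values in view, namely *tectb*, *otol1a*, *otop1*, *slc17a8*, *cacna1da*, *atoh1a*, *pou4f1*, *barhl2*, *rfx3*, *six1b*, *eya1*, *crx*, *pcdh15a*, *pcdh15b*, *myo7ab*, the marker genes of other tissues and the genes under other observations. Of the list genes, *rimbp2b* had no row under that name. No genome positions or sequences are given, since no annotation of GRCz11 was used here.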

Additional observations from a re-analysis of the deposited data

How the results depend on the processing

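The calls of *otomp*, *otofb* and *tecta* were kept in all 17 alternatives. The number of ear genes called higher was 3 or 2 throughout, and that called lower was 1 in place of 2 without a filter on low values, without a variance trend, with TMM scaling, with edgeR, with DESeq2 and with the replicate block, as *cdh23* was lost (adjusted p = 0.0539 with the block). Leaving out each library gave 1 to 2 called lower. With no limit on the fold change, 4 ear genes were lower, 27 entries of the ear lists passed in place of 15, and 7022 genes in all in place of 3746. With a library left out, 9 to 22 entries of the ear lists were called. The estimate of *oc90* changed sign with a pseudocount of 0.5 (0.00), with TMM scaling (0.01) and with a library left out (-0.40 to 0.62), and that of *stm* without WT replicate 3 (0.00, range -0.17 to 0.00). The call of *pvalb9* was also lost with a pseudocount of 0.5, no filter, no trend and library total scaling (adjusted p = 0.0507, 0.058, 0.145 and 0.0586). The cause was not tested. Same-numbered pools of the 2 groups deviated together only weakly (r = 0.043, 0.149 and 0.041), not every pool correlated best with its own number, and the replicate block gave 3822 calls in all. The block left the other calls among the 10 ear genes as they were. At 4 to 20 reads per pool, depth limits *oc90* and the second *cdh23* entry.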

Other observations

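Several genes of the hair bundle list passed the adjusted p but stayed just short of the fold limit. They were picked after their values were seen, and the part of the retina in these values was not tested. The whirlin gene *whrna*, for a scaffold protein at stereocilia tips, stood at 842, 839 and 813 normalized counts in WT pools and 570, 596 and 627 in mutant pools, without overlap (log2 fold change -0.48, SE 0.08, adjusted p = 0.00124 by limma). The gene *myo7ab*, the paralog of *myo7aa*, stood at 602, 618 and 521 normalized counts in WT pools and 387, 386 and 459 in mutant pools (log2 fold change -0.50, adjusted p = 0.00538 by limma). For the protocadherin 15 paralogs *pcdh15a* and *pcdh15b* the log2 fold change was -0.49 and -0.47 (adjusted p = 0.0153 and 0.0292 by limma). With a library left out, that of *pcdh15a* ran from -0.63 to -0.35 (adjusted p up to 0.0651) and that of *pcdh15b* from -0.64 to -0.29 (adjusted p up to 0.112). Each was called lower without WT pool 2 or mutant pool 3 and was smallest without mutant pool 2. The genes *myo7ab* and *whrna* were called lower in 2 and 1 of the 6 fits with a library left out, with adjusted p up to 0.0296 and 0.00884.

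Of 5 tested markers of the support cells around neuromasts, 1 was called higher and none lower, beside 15.4% and 2.68% of all tested genes. The median log2 fold change of the 5 was 0.25, and 4 were above 0. The called gene was *fgf10a*, with 21.7, 35.8 and 42.7 normalized counts in WT pools and 82.0, 58.3 and 46.8 in mutant pools (log2 fold change 0.90, adjusted p = 0.0429 by limma), a call lost without WT pool 1 or 2 or mutant pool 1 or 2 (adjusted p up to 0.159). For *alpi.1* and *sost* the mutant pools lay all above the WT pools without a call (log2 fold changes 0.63 and 0.25, adjusted p = 0.0608 and 0.128 by limma). All 6 intestine markers were called higher in the same comparison. The part of the intestine or of other tissues in the values of these support cell markers was not tested. The values of *tnfsf10l3* overlapped (log2 fold change 0.20). The Notch modulator gene *lfng* had a log2 fold change of -0.05 with a 95% interval from -0.24 to 0.13. The summed level of the listed markers was 1101 to 1161 normalized counts in WT and 1155 to 1201 in the mutant. Most of this sum was *lfng*, with means of 831 in WT and 800 in the mutant, so the sum says little about the other markers.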
